A study of Homo sapiens with 6 samples.

Results

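The 48 genes described here encode the machinery that copies DNA and the enzymes that supply its building blocks. They were chosen by name, as the rows of the deposited count table whose symbol is on a list of replication and nucleotide genes, and all 48 were present among 23998 genes. Transcripts were measured by RNA-seq of poly(A) RNA in LNCaP, an established androgen-responsive human prostate cancer cell line, with 3 libraries from untreated cells (LNCaP-WT) and 3 from a derivative resistant to the antiandrogen enzalutamide (LNCaP-ENZR). The labels give LNCaP-WT no treatment. For LNCaP-ENZR they give over 12 months of enzalutamide, raised step by step from 5 to 50 µM, with culture in 10% serum stripped by charcoal, a step that removes steroids. A growth protocol with 10% fetal bovine serum is given for both groups, and the medium and drug at harvest are not stated, so drug history, serum and time in culture cannot be told apart. Only 1 resistant derivation was sampled. The labels do not say whether same-group libraries are separate cultures, so every p-value here reflects spread among these 6 libraries, and that spread may be technical. The libraries held 34505712 to 36610862 counts, and library pairs within a group differed by more than sampling noise. All 10 luminal prostate markers on the list were detected, with sums of 3404 to 3489 CPM (each library put on one total, with TMM factors for composition) per LNCaP-WT library against 2110.0 to 2155 CPM per LNCaP-ENZR library. Of the 10, 7 fell, among them TRPM8 to a mean of 0.541 CPM, HOXB13 and SLC45A3 rose, and KRT18 did not pass the test. Among markers of other cells, 5 leukocyte genes summed to 0.441 to 0.602 CPM per LNCaP-WT library and 0.453 to 0.630 CPM per LNCaP-ENZR library. For 5 basal genes the ranges were 14.1 to 17.7 and 4.72 to 5.39 CPM. Most of this was ITGB4 (means of 8.54 CPM in LNCaP-WT and 1.97 CPM in LNCaP-ENZR) and LAMB3 (7.07 and 2.53 CPM), which both fell. The basal keratins KRT5, KRT14 and KRT15 had means of at most 0.361 CPM in either group. For 7 fibroblast and endothelial genes the ranges were 107.6 to 121.7 and 128.7 to 164.2 CPM. COL1A1 made up most of the latter sums, at means of 105.1 and 102.5 CPM, and did not pass the test. Of the 7, only VWF passed it, rising from a mean of 0.701 to 31.3 CPM. No listed marker was at 0 in all libraries, and the part of these shifts in the results was not tested.

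Replication begins when the origin recognition complex (ORC) marks origins and, with CDC6 and CDT1, loads the ring of MCM2 to MCM7 around DNA. CDC45 and the GINS complex join the ring to form the active helicase, the polymerase alpha-primase complex starts each strand, and polymerases epsilon and delta extend the leading and lagging strands on the PCNA clamp. Many of these genes are targets of the E2F transcription factors, which drive them as cells enter S phase, when DNA is copied.

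Nearly the whole machinery was higher in the resistant cells. All 48 genes passed the filter on low counts, with at least 106 counts in every library, and all 48 passed edgeR's quasi-likelihood test (adjusted p under 0.05), 46 of them higher and 2 lower in LNCaP-ENZR. Over all 15422 tested genes, 69.2% passed in either direction, 34.4% as higher and 34.8% as lower. A rise of at least 2-fold was found for 31 of the 48 members and for 9.74% of all tested genes. None of the 48 fell by as much, against 11.9% of all tested genes. The count at 2-fold depends on the TMM factors. With scaling by library totals alone, CDT1, MCM6, POLA1, PRIM1, PRIM2, PCNA and LIG1 came just under 2-fold, at log2 fold changes of 0.92 to 0.99. In each of the 48 genes the libraries of the 2 groups did not overlap, where 35.8% of all tested genes had every LNCaP-ENZR library higher and 36.4% every one lower. The median log2 fold change was 1.13 for the members against -0.01 for all tested genes. The sum of all 48 genes was 2122, 2149 and 2140.2 CPM in the LNCaP-WT libraries and 4521, 4608 and 4481 CPM in the LNCaP-ENZR libraries. These are bulk samples, so a larger share of cells in S phase and more transcripts per cell cannot be told apart.

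**Figure D1:**
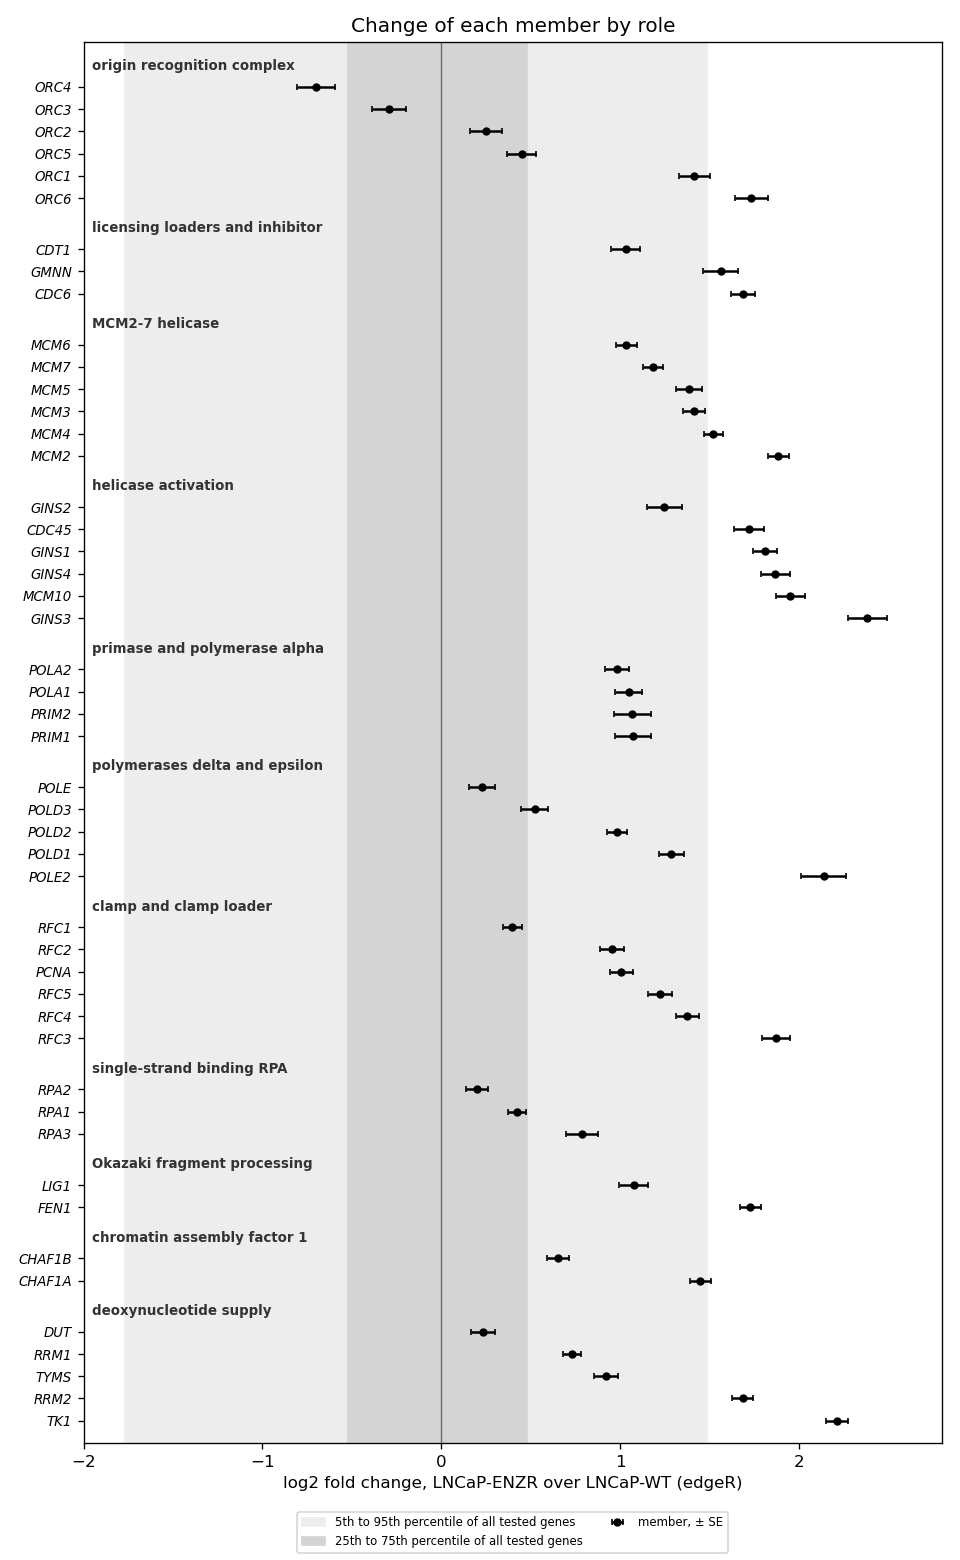
Log2 fold change of each of the 48 genes (LNCaP-ENZR over LNCaP-WT, edgeR, points with SE), grouped by role, over bands for the 5th to 95th and 25th to 75th percentiles of all tested genes. ORC3 and ORC4 lie below 0, and all 6 helicase activation genes lie above 1.2.

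E2F-type motifs occurred in a larger share of these promoters than of promoters of tested genes. RefSeq promoter windows on GRCh38.p14, from 250 bases before to 50 after the annotated start, were at hand for 42 of the 48 members. An E2F-type motif, spelled TTTCCCGC, TTTCGCGC, TTTGCCGC or TTTGGCGC and searched on both strands, occurred in 18 of 42 members (42.9%) and in 5.3% of 12062 windows of tested genes. All 4 MCM2 to MCM7 genes with a window had a match. Windows with CCAAT made up 54.8% of the members and 36.5% of tested genes. Those with TTTGAA or TTTAAA, letters of the element common in promoters of mitotic genes, made up 7.1% and 15.5%. A match is a description of letters and not a binding site. The 10 sequences printed here, chosen because they place the motif close to the start in members of 8 roles, are those with an E2F-type match wholly within the 100 bases before the start. Each line gives these bases in the direction of transcription, with the match in capitals. In MCM6 a match on each strand overlaps the other, and they make up 1 run of capitals.
ORC3, chr6:87590035-87590134, plus strand: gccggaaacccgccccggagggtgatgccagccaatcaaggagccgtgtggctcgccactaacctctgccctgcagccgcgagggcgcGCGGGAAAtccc
CDT1, chr16:88803689-88803788, plus strand: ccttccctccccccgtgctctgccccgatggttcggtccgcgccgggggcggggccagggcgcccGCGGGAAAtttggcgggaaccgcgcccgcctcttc
MCM6, chr2:135876444-135876543, minus strand: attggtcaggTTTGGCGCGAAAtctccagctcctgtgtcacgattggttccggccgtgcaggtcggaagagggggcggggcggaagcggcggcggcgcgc
MCM7, chr7:100101398-100101497, minus strand: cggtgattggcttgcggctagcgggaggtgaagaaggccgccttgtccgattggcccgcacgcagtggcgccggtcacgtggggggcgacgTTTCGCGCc
GINS2, chr16:85688955-85689054, minus strand: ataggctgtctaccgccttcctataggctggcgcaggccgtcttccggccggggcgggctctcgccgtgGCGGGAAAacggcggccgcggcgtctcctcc
POLA2, chr11:65261862-65261961, plus strand: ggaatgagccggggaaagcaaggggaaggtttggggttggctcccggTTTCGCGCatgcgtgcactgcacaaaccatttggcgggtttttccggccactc
POLE, chr12:132687343-132687442, minus strand: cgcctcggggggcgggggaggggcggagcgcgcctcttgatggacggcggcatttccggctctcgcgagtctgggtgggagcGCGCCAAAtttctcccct
PCNA, chr20:5126623-5126722, minus strand: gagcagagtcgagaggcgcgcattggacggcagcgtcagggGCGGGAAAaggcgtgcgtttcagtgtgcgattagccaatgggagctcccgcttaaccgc
RFC3, chr13:33818049-33818148, plus strand: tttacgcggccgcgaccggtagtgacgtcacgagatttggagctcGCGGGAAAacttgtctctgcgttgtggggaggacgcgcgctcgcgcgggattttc
TYMS, chr18:657553-657652, plus strand: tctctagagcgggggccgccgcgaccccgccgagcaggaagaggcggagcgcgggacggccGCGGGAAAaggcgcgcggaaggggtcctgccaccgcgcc

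Members with and without a match had similar median changes. The 18 genes with a match had a median log2 fold change of 1.13, and the 24 without had one of 1.15. A rise of at least 2-fold was found for 14 of the 18 and for 14 of the 24, a smaller share. Over all tested genes it was found for 9.74%. Both ORC3, which fell, and GINS3, which rose 5.21-fold, had a match, and TK1, RRM2 and FEN1, which rose over 3-fold, had none in this window. For ORC1, CDC45, PRIM2, POLD2 and RRM2, all without a match, the window was set at a start inside the RefSeq gene span. Windows at the outer starts of these genes were not searched. Among the members whose one match reads TTTCCCGC on the reverse strand, ORC3 fell 1.22-fold, while TYMS rose 1.89-fold, PCNA 2.01-fold, CDT1 2.04-fold, GINS2 2.37-fold, RFC3 3.66-fold and GINS3 5.21-fold.

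The origin recognition complex was the one role group that split. ORC1, its largest subunit and an ATPase, stood at 12.3, 11.7 and 13.04 CPM in the LNCaP-WT libraries and 31.7, 34.3 and 32.7 CPM in the LNCaP-ENZR libraries (log2 fold change 1.42 ± 0.0845 SE, edgeR adjusted p = 2.0e-11). ORC6, the smallest subunit and the most loosely attached, went from 11.2, 12.4 and 10.5 to 39.95, 38.8 and 34.8 CPM (log2 fold change 1.73 ± 0.0907 SE, edgeR adjusted p = 2.8e-12). In both genes every resistant library stood more than 2-fold above every parental one. The other 4 subunits split. ORC4 (RefSeq, GRCh38.p14, chr2:147930396-148021551) fell from 33.6, 37.5 and 32.99 to 24.8, 17.5 and 21.7 CPM (log2 fold change -0.70 ± 0.105 SE, edgeR adjusted p = 1.4e-05), the largest fall among the members. ORC3 fell from 20.98, 20.8 and 20.5 to 19.03, 14.7 and 17.2 CPM (log2 fold change -0.29 ± 0.0959 SE, edgeR adjusted p = 0.011), with LNCaP-ENZR 2 the lowest library in both genes. Without LNCaP-ENZR 2 the ORC3 call was lost (edgeR adjusted p = 0.071, log2 fold change -0.19), and over its 18 alternatives the adjusted p ran from 0.0019 to 0.071. ORC5 rose 1.37-fold (edgeR adjusted p = 7.0e-05). ORC2 went from 29.9, 30.3 and 28.2 to 40.5, 32.1 and 32.6 CPM, with LNCaP-ENZR 1 well above the other two resistant libraries. Its call (edgeR adjusted p = 0.017) was lost without LNCaP-ENZR 1 (0.12) or LNCaP-WT 3 (0.061) and in 3 other alternatives, in a range of 0.0030 to 0.18 over 18.

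The loaders of the helicase and their inhibitor all rose. CDC6, the ATPase that joins ORC at origins, went from 24.8, 25.02 and 23.5 to 80.4, 78.97 and 76.7 CPM (log2 fold change 1.69 ± 0.066 SE, edgeR adjusted p = 4.1e-14). CDT1, which brings the MCM ring to ORC, went from 23.8, 22.1 and 24.5 to 44.2, 52.6 and 47.2 CPM, a smaller rise of 2.04-fold. GMNN encodes geminin, the protein that binds CDT1 and blocks a second round of loading, and it went from 11.1, 11.9 and 10.8 to 37.3, 33.2 and 29.4 CPM (log2 fold change 1.56 ± 0.0966 SE, edgeR adjusted p = 3.5e-11). The inhibitor thus rose by more than its target in fold terms. Per kilobase, CDT1 was 3.35, 2.92 and 3.56 times GMNN in the LNCaP-WT libraries and 1.86, 2.49 and 2.52 times in the LNCaP-ENZR libraries, a log2 difference of -0.53.

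All 6 subunits of the MCM helicase ring rose, each by at least 2-fold with TMM scaling. With library totals alone MCM6 came just under that (log2 fold change 0.95). MCM2 had the largest rise of the ring, from 91.02, 81.04 and 93.2 to 323, 332 and 324 CPM (log2 fold change 1.88 ± 0.0593 SE, edgeR adjusted p = 1.8e-15). MCM4 went from 83.7, 80.5 and 83.04 to 236, 242 and 232 CPM, or 2.87-fold. MCM6 had the smallest rise, from 47.1, 49.3 and 47.2 to 96.5, 98.01 and 99.4 CPM (log2 fold change 1.03 ± 0.0591 SE, edgeR adjusted p = 1.1e-11). The rest lay between these, with MCM3 up 2.67-fold, MCM5 2.61-fold and MCM7 2.27-fold. Although the ring holds 1 copy of each subunit, transcript levels per kilobase were uneven in both groups. In LNCaP-WT they ran from 6.88 FPKM for MCM5 to 49.6 FPKM for MCM7, a span of 7.20-fold, and in LNCaP-ENZR from 16.9 to 106 FPKM, a span of 6.25-fold. FPKM is the count scaled by gene-model length and library total. The order by mean, MCM7, MCM2, MCM4, MCM3, MCM6 and MCM5, was the same in both groups, and no neighbours in it overlapped between libraries of a group. MCM7 shares 8.9% of its exon bases with AP4M1 on the other strand, and AP4M1 fell.

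**Figure D2:**
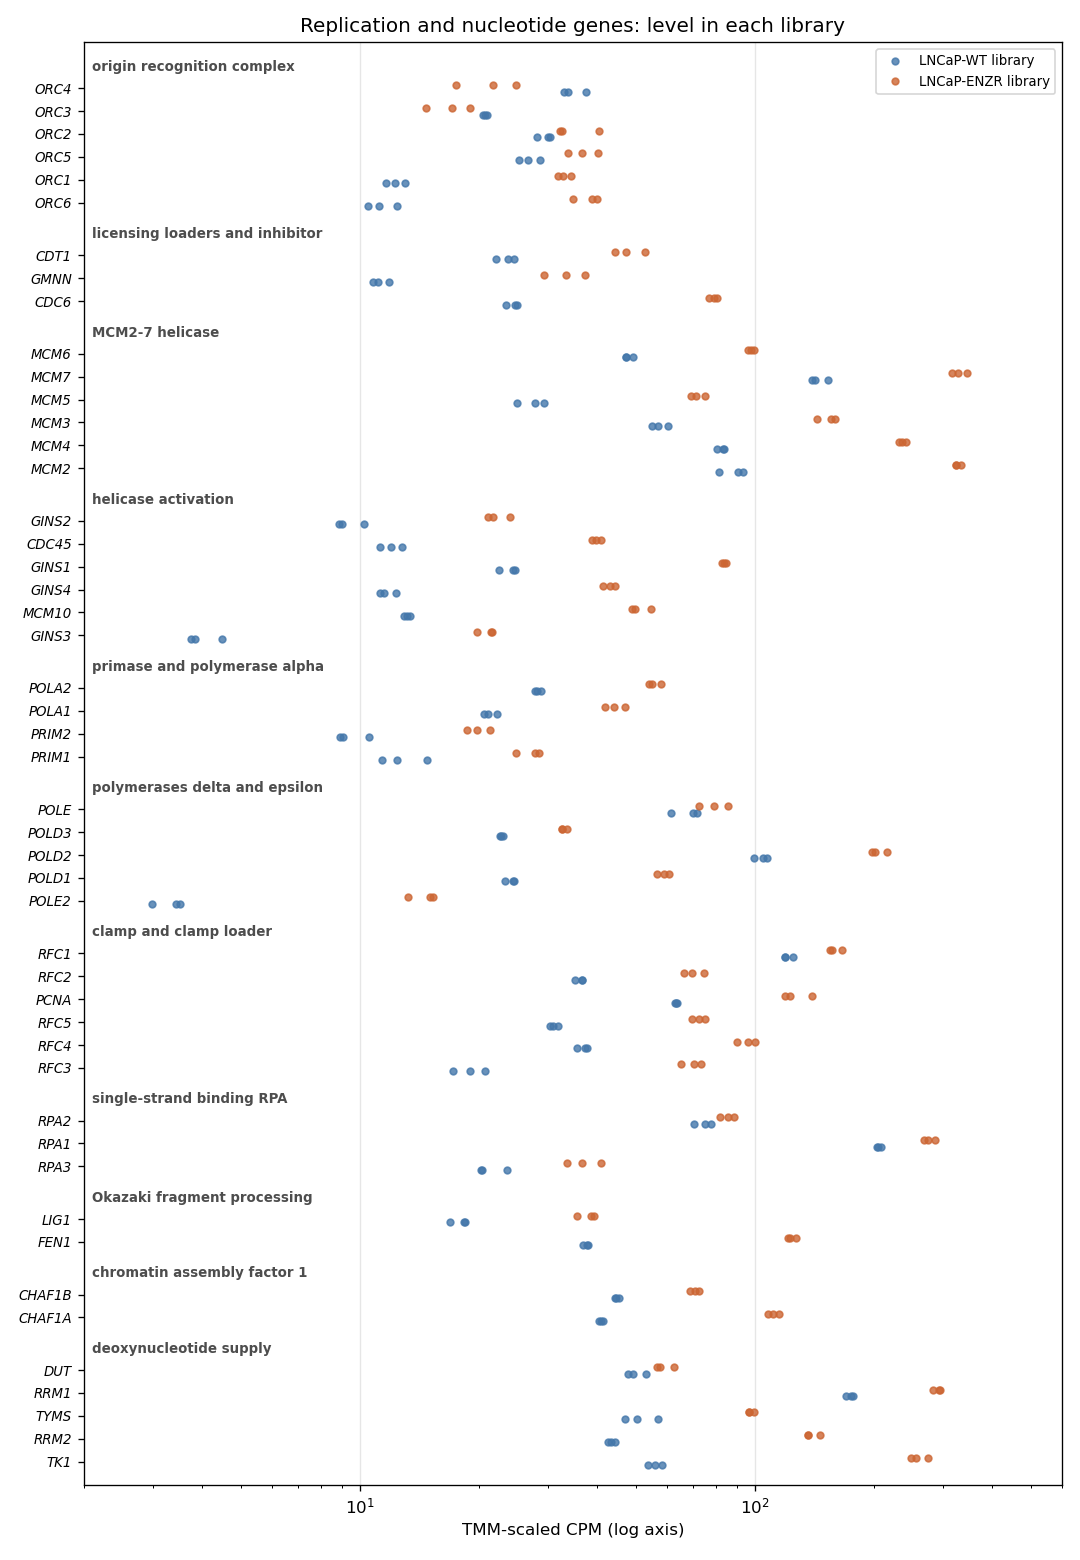
TMM-scaled CPM (log axis) of each member in each library, LNCaP-WT in blue and LNCaP-ENZR in orange, grouped by role and ordered by fold change. The 2 colours are separate in every gene, with the narrowest gaps in POLE, ORC3, ORC2, RPA2 and DUT.

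The factors that turn the loaded ring into a moving helicase showed the largest rises of any role group, with a median log2 fold change of 1.84 over 6 genes. GINS3 (RefSeq, GRCh38.p14, chr16:58392471-58406147), a subunit of the 4-part GINS complex, went from 3.83, 4.49 and 3.75 to 19.9, 21.6 and 21.5 CPM (log2 fold change 2.38 ± 0.111 SE, edgeR adjusted p = 5.0e-13). This was the largest fold change of the 48 members, except with limma-trend on log2(FPKM + 1), which understates low genes and gave 1.81 for GINS3 and 2.09 for TK1. Per kilobase GINS3 was the least abundant of this group in LNCaP-WT (1.79 FPKM). GINS4 went from 11.5, 11.3 and 12.4 to 42.96, 44.3 and 41.3 CPM. GINS1 went from 24.7, 24.4 and 22.5 to 84.7, 82.9 and 83.6 CPM, and it remained the most abundant per kilobase. GINS2 had the smallest rise of the complex, from 9.04, 10.3 and 8.85 to 21.7, 24.04 and 21.1 CPM (2.37-fold, edgeR adjusted p = 1.2e-09), and in LNCaP-ENZR it overlapped GINS3 per kilobase, at 8.22 and 8.79 FPKM. The spread of mean levels among CDC45, MCM10 and the GINS genes narrowed from 3.94-fold to 2.83-fold. CDC45, the other partner of the ring, went from 11.3, 12.8 and 11.99 to 38.8, 40.8 and 39.6 CPM (3.298-fold). MCM10, which acts when the helicase is switched on, went from 13.2, 12.9 and 13.4 to 54.7, 49.8 and 48.8 CPM (log2 fold change 1.95 ± 0.0784 SE, edgeR adjusted p = 6.0e-14).

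The 4 subunits of polymerase alpha-primase, which lays down the RNA-DNA primers, rose by nearly the same factor. The catalytic subunit gene POLA1 rose 2.07-fold and its partner POLA2 1.97-fold. The primase genes PRIM1 and PRIM2 rose 2.105-fold and 2.098-fold. In libraries, POLA1 went from 20.6, 21.2 and 22.3 to 46.9, 44.01 and 41.7 CPM and PRIM1 from 11.4, 14.8 and 12.4 to 27.9, 24.9 and 28.5 CPM. Their log2 fold changes lay between 0.98 and 1.07.

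Polymerases delta and epsilon were uneven. POLE encodes the catalytic subunit that extends the leading strand, and it stood at 69.9, 61.4 and 71.4 CPM in LNCaP-WT and 72.4, 79.1 and 85.7 CPM in LNCaP-ENZR (log2 fold change 0.23 ± 0.0731 SE, edgeR adjusted p = 0.01). The highest parental library was only just below the lowest resistant one. That call was lost without LNCaP-WT 2 (edgeR adjusted p = 0.061) and in 3 other alternatives, in a range of 1.4e-04 to 0.19 over 18. Its accessory subunit gene POLE2 went from 2.99, 3.42 and 3.50 to 15.1, 13.3 and 15.3 CPM (log2 fold change 2.14 ± 0.127 SE, edgeR adjusted p = 1.8e-11), or 4.403-fold. The delta subunits lay between. POLD1, the catalytic subunit of the lagging-strand polymerase, went from 23.3, 24.4 and 24.6 to 56.7, 60.7 and 59.1 CPM (2.44-fold). The accessory gene POLD2 rose 1.98-fold and POLD3 1.44-fold, POLD3 with narrow replicates at 22.8, 22.7 and 23.1 and 32.5, 32.6 and 33.4 CPM.

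PCNA and all 5 subunits of replication factor C (RFC), a complex that loads it, rose over a wide range. PCNA, the sliding clamp, went from 63.2, 63.8 and 62.9 to 139, 123 and 119 CPM (log2 fold change 1.01 ± 0.0639 SE, edgeR adjusted p = 5.0e-11), with LNCaP-ENZR 1 the highest. RFC3, a small subunit of the clamp loader, went from 19.01, 20.7 and 17.2 to 73.1, 65.2 and 70.2 CPM (3.66-fold). RFC4 rose 2.597-fold, RFC5 2.34-fold and RFC2 1.94-fold. These 4 small subunits also serve in clamp loaders built around other large subunits, whereas RFC1 is the large subunit of RFC alone. RFC1 rose least, from 125, 119 and 119 to 166, 156 and 157 CPM (log2 fold change 0.40 ± 0.0542 SE, edgeR adjusted p = 2.4e-06).

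Replication protein A (RPA), which coats single-stranded DNA in replication and repair alike, rose least of the role groups by summed level. RPA1, the large subunit, went from 204, 206 and 209 to 275, 285 and 268 CPM, or 1.34-fold. RPA3 rose 1.72-fold. RPA2 went from 70.04, 77.6 and 74.9 to 85.4, 88.8 and 81.8 CPM (log2 fold change 0.20 ± 0.0617 SE, edgeR adjusted p = 0.0071). The RPA2 call was lost without LNCaP-WT 1 (edgeR adjusted p = 0.060), with scaling by library totals (0.10) and in 2 other alternatives, in a range of 0.0032 to 0.10 over 18.

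Enzymes that finish the lagging strand and repackage it rose. FEN1, the nuclease that trims flaps between Okazaki fragments, went from 37.7, 37.9 and 36.8 to 123, 127 and 122 CPM (log2 fold change 1.73 ± 0.0593 SE, edgeR adjusted p = 5.8e-15). LIG1, the ligase that seals them, went from 18.4, 16.9 and 18.4 to 38.5, 35.5 and 39.2 CPM (2.11-fold). FEN1 shares 6.7% of its exon bases with TMEM258 on the other strand and 2.0% with FADS2 on the same strand, and both of these genes rose. Chromatin assembly factor 1 places histones on new DNA. Its large subunit gene CHAF1A went from 40.3, 40.96 and 41.4 to 108, 111 and 116 CPM (2.73-fold), and CHAF1B from 44.3, 45.4 and 44.6 to 68.5, 70.5 and 72.2 CPM (1.57-fold). Both were tight among replicates, so the unequal rise was larger than the spread.

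All 5 members of deoxynucleotide supply rose, TK1 and RRM2 by the most and DUT by the least. TK1 (RefSeq, GRCh38.p14, chr17:78174079-78187204), the cytosolic thymidine kinase that salvages thymidine and is made mainly in S phase, went from 55.9, 58.4 and 53.9 to 249, 274 and 257 CPM (log2 fold change 2.21 ± 0.0592 SE, edgeR adjusted p = 2.0e-16), and 2.26% of tested genes had a larger log2 fold change. RRM2, the small subunit of ribonucleotide reductase, went from 43.4, 44.4 and 42.5 to 147, 136 and 136 CPM (log2 fold change 1.69 ± 0.0598 SE, edgeR adjusted p = 9.4e-15). The resistant libraries held over 3 times the RRM2 of the parental ones. RRM1, the large subunit, which unlike RRM2 persists through the cell cycle as a protein, went from 176, 178 and 170.2 to 294, 292 and 283 CPM (log2 fold change 0.73 ± 0.0508 SE, edgeR adjusted p = 1.9e-10). TYMS, which makes thymidylate from deoxyuridylate, went from 47.1, 57.0 and 50.5 to 96.7, 96.6 and 99.4 CPM (1.89-fold). TYMS shares 39.1% of its exon bases with ENOSF1 on the other strand, so its value is uncertain where strand was not used in counting. ENOSF1 itself was at 80.7 ± 3.64 and 79.0 ± 6.93 CPM (SD, n = 3, edgeR adjusted p = 0.69). TYMSOS, which shares 7.4% of TYMS exon bases on the other strand, rose from 5.28 ± 0.233 to 14.6 ± 1.35 CPM (SD, n = 3, edgeR adjusted p = 1.3e-09). DUT, which removes dUTP so that uracil is not built into DNA, went from 49.1, 53.2 and 47.9 to 57.6, 62.5 and 56.7 CPM (log2 fold change 0.23 ± 0.0677 SE, edgeR adjusted p = 0.0047). DUT has 8 pseudogenes by name in the GENCODE 29 annotation, and its call was lost when scaled by library totals (edgeR adjusted p = 0.056, in a range of 0.0017 to 0.056 over 18 alternatives).

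Where partner subunits rose unequally, their proportions in the transcript pool shifted. Partners with similar rises, such as POLA1 and POLA2 (2.07-fold and 1.97-fold), are not among the pairs below. The pairs therefore do not describe partner genes in general. For 10 pairs chosen by role, the ratio of FPKM values was taken within each library, which removes any effect of library scaling. POLE2 was 0.176, 0.229 and 0.202 times POLE in the LNCaP-WT libraries and 0.857, 0.69 and 0.736 times in the LNCaP-ENZR libraries, the largest shift of the 10 (log2 difference 1.92). ORC6 was close to ORC2 in LNCaP-WT, at 0.966, 1.06 and 0.959 times, and reached 2.54, 3.11 and 2.75 times in LNCaP-ENZR. ORC1 was below ORC2 in LNCaP-WT and above it in LNCaP-ENZR, with a log2 difference of 1.17, and CDC6 likewise crossed ORC2 (log2 difference 1.45), in every library of each group. The small subunit of ribonucleotide reductase gained on the large one. RRM2 was 0.258, 0.26 and 0.261 times RRM1 in LNCaP-WT and 0.52, 0.485 and 0.504 times in LNCaP-ENZR. TK1 over TYMS rose by 1.29 on the log2 scale. The other way, CHAF1B over CHAF1A fell from 0.779, 0.786 and 0.764 to 0.45, 0.45 and 0.443, POLD3 over POLD1 from 0.799, 0.758 and 0.767 to 0.468, 0.438 and 0.462, and GINS2 over MCM2 from 0.133, 0.17 and 0.127 to 0.0901, 0.097 and 0.0872. The groups did not overlap in any of the 10 ratios, and each gave an exact two-sided permutation p of 0.10 (0.10 after Benjamini-Hochberg adjustment over the 10), the smallest that 3 against 3 libraries allow. Taken singly, 35.8% of all tested genes had every LNCaP-ENZR library higher and 36.4% every one lower. The share among other gene pairs was not computed. ORC1, CDC6 and ORC6 were all set over ORC2, so those ratios are not independent. The sizes of these levels rest on the authors' gene lengths, while a shift of a ratio between groups does not.

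**Figure D3:**
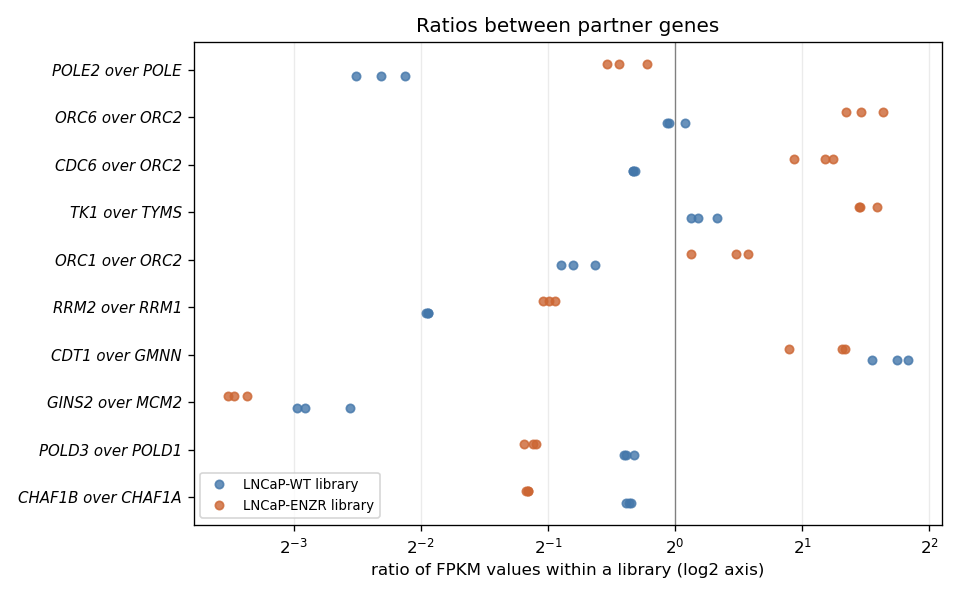
Ratio of FPKM values of 10 partner pairs within each library (log2 axis), LNCaP-WT in blue and LNCaP-ENZR in orange. POLE2 over POLE moved furthest to the right, and CHAF1B over CHAF1A, POLD3 over POLD1, GINS2 over MCM2 and CDT1 over GMNN moved to the left.

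Summed per kilobase, helicase activation ranked first among the role groups, as it did by median change of its members, but some other ranks differed. Deoxynucleotide supply (ratio 2.31, median log2 fold change 0.92) stood above the clamp group (1.91 and 1.12) by sum and below it by median. The MCM ring genes summed to 133.1 ± 4.68 FPKM in LNCaP-WT and 337 ± 9.23 FPKM in LNCaP-ENZR (SD, n = 3). The 6 ORC genes summed to 35.4 ± 1.09 and 54.8 ± 3.28 FPKM, a ratio of 1.54, the second smallest of the 11 groups after RPA at 1.23. Helicase activation genes went from 23.8 ± 0.729 to 77.9 ± 0.806 FPKM, the highest ratio at 3.28. Within ORC the spread of mean levels widened, from 1.80-fold among the 6 genes in LNCaP-WT, where ORC5 was highest and ORC1 lowest, to 7.01-fold in LNCaP-ENZR, where ORC6 was highest and ORC4 lowest. In the clamp group it narrowed from 26.8-fold to 14.7-fold, with PCNA highest and RFC3 lowest in both, RFC3 having a gene model of 11.25 kilobases in the deposited FPKM. Per kilobase TK1 passed RRM1 to become the highest of the 5 members of deoxynucleotide supply, from 34.1 against 50.2 FPKM in LNCaP-WT to 149 against 78.5 FPKM in LNCaP-ENZR. FPKM values are scaled by library totals alone, which lowers the LNCaP-ENZR values a little against the TMM-scaled CPM used elsewhere (TMM factors were 1.03 for LNCaP-WT and between 0.966 and 0.976 for LNCaP-ENZR).

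**Figure D4:**
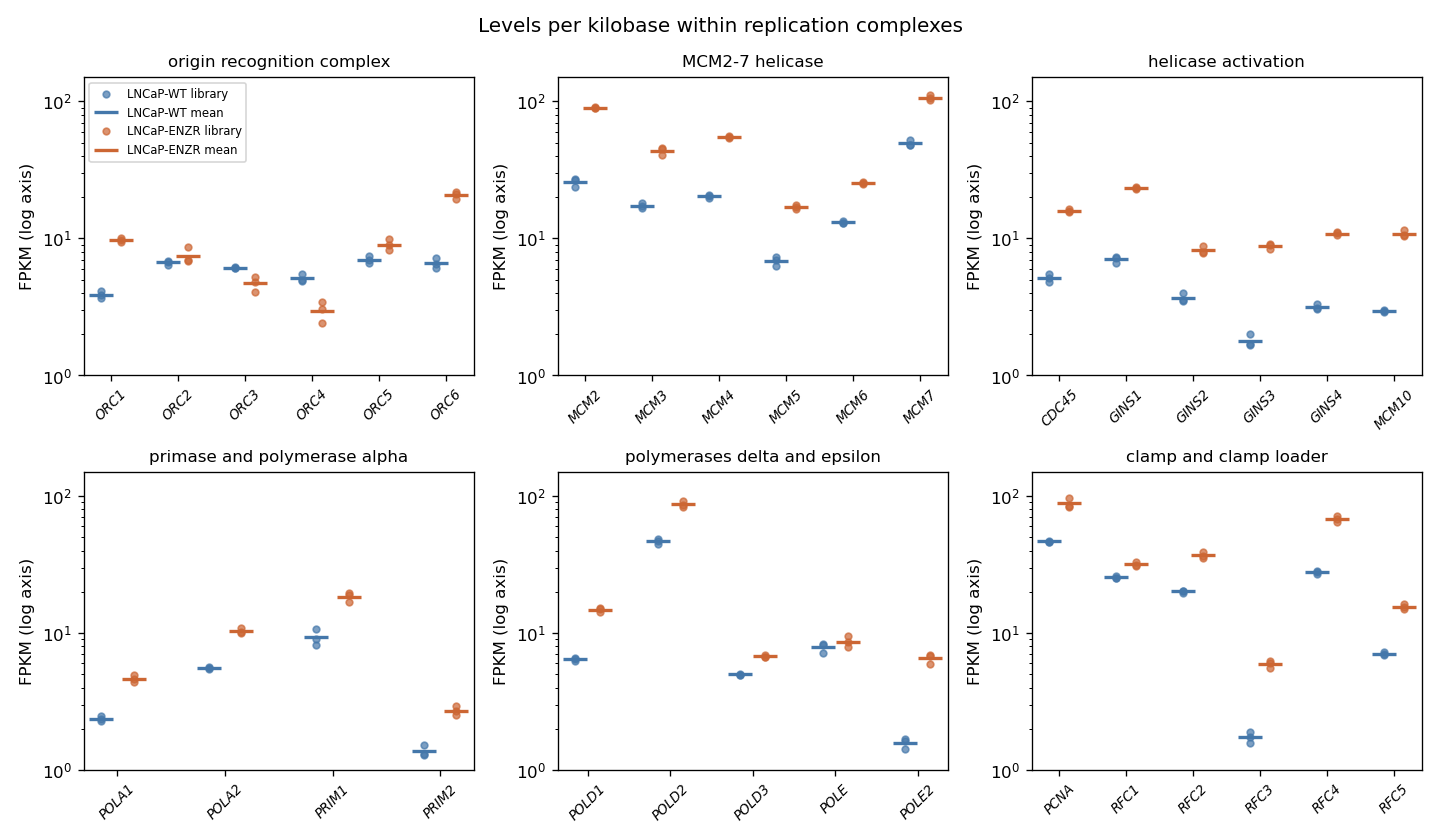
FPKM (log axis) of the subunits of 6 replication complexes in each library, with group means as bars. The MCM genes keep their order between groups, while ORC6 rises past the other ORC genes.

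Other genes of replication, from a list of 50 drawn up by function, rose less uniformly. CHTF8 is not analysed here, and the remaining 49 all passed the filter. Of these, 38 were called higher, 5 lower and 6 neither, where 34.4% of all tested genes were called higher and 34.8% lower. Their log2 fold changes had a median of 0.71, and 10 of the 49 changed their call under at least 1 of the 18 alternatives. WDHD1, which ties polymerase alpha to the helicase, went from 18.6, 19.9 and 18.5 to 70.2, 58.9 and 71.9 CPM (log2 fold change 1.82 ± 0.0821 SE, edgeR adjusted p = 3.4e-13). TICRR, needed to load CDC45 at origins, rose 3.14-fold, and RNASEH2A, the catalytic subunit of ribonuclease H2, rose 3.01-fold. NUDT1, which clears oxidised nucleotides, rose 2.83-fold, the histone chaperone gene ASF1B 2.81-fold and the nucleoside diphosphate kinase gene NME1 2.75-fold. All 7 analysed genes of fork protection and alternative clamp loaders rose. Of these, ATAD5 lost its call in 1 of 18 alternatives (limma-trend on log2(FPKM + 0.1), adjusted p = 0.052). Of 10 genes of origin firing 9 rose, of which MTBP lost its call in 5 of 18 alternatives (adjusted p from 0.0090 to 0.13). The falls included close relatives of members that rose.

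RRM2B, the alternative small subunit of ribonucleotide reductase that is induced by p53 and works outside S phase, was 98.5, 107 and 100.4 CPM in LNCaP-WT and 46.9, 33.9 and 41.6 CPM in LNCaP-ENZR (log2 fold change -1.32 ± 0.0918 SE, edgeR adjusted p = 3.9e-09). Per kilobase it stood above RRM2 in every LNCaP-WT library, with means of 20.8 and 13.03 FPKM, and below it in every LNCaP-ENZR library, with means of 7.85 and 39.5 FPKM. TK2, the mitochondrial counterpart of TK1, fell 1.27-fold. CMPK1, a kinase of UMP and CMP, went from 159, 191 and 157 to 81.03, 62.1 and 67.7 CPM (log2 fold change -1.27 ± 0.103 SE, edgeR adjusted p = 5.6e-07). RNASEH2C, a subunit of the same enzyme as RNASEH2A, fell 1.37-fold, and POLD4, the smallest subunit of polymerase delta, 1.26-fold. Of the MCM relatives that are not part of the ring, MCM8 rose 2.21-fold and MCM9 was at 12.3 ± 0.484 and 12.5 ± 1.24 CPM (SD, n = 3, edgeR adjusted p = 0.89).

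**Figure D5:**
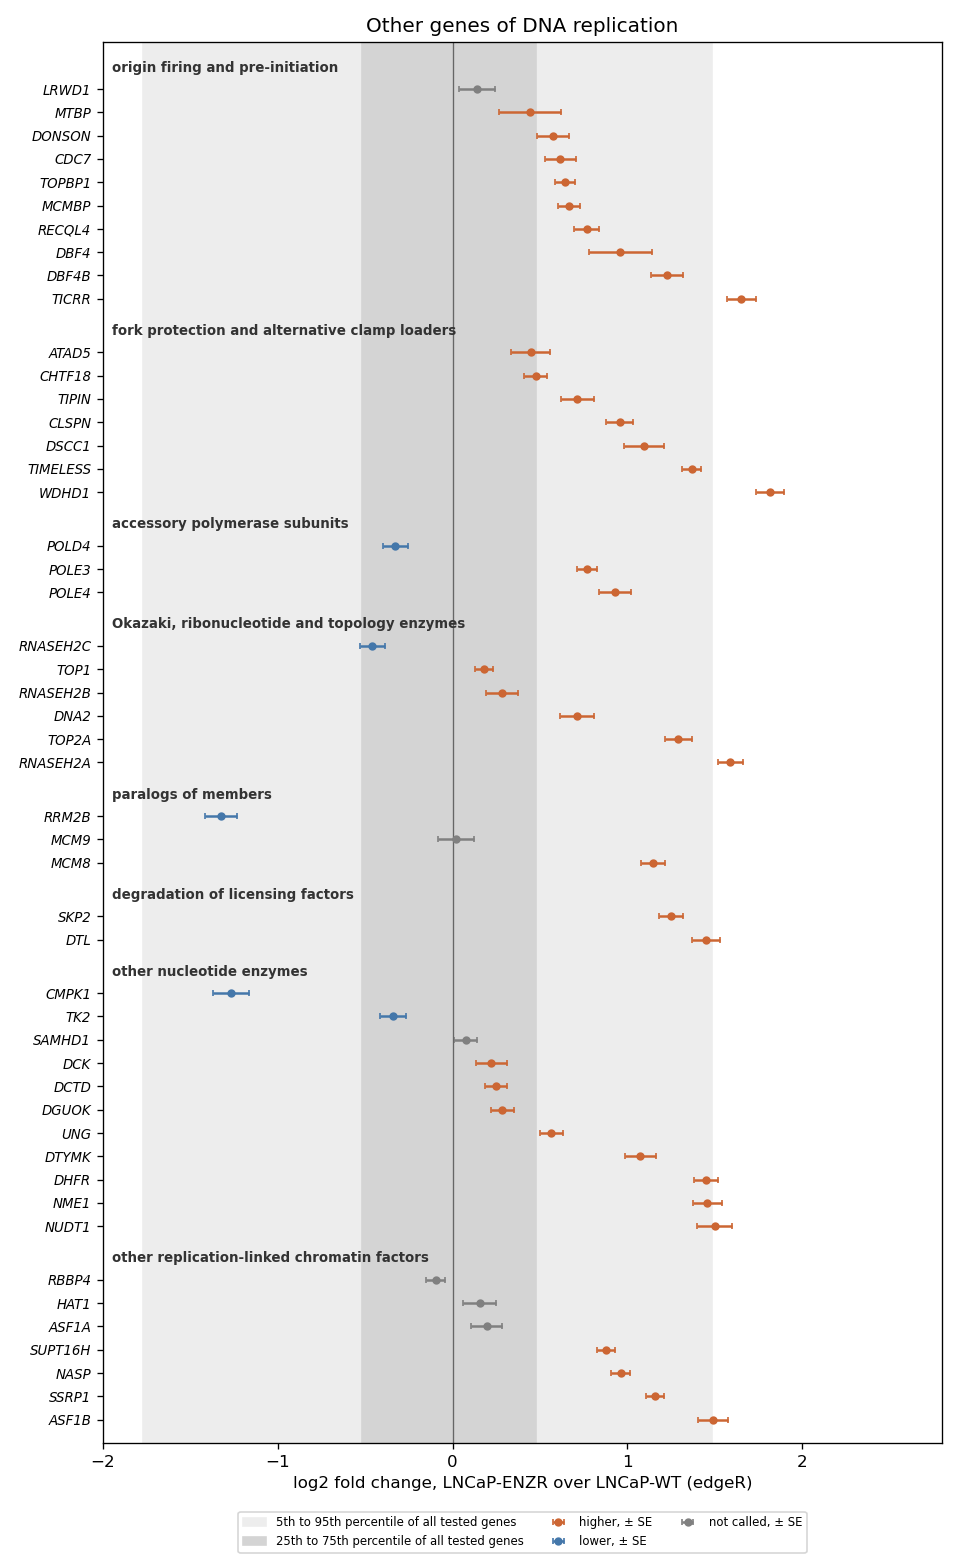
Log2 fold change with SE of 49 other genes of DNA replication (LNCaP-ENZR over LNCaP-WT, edgeR), grouped by function, over the percentile bands of all tested genes. Genes called higher are orange, lower blue and not called grey, and RRM2B and CMPK1 lie furthest left.

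Some values rest on shared sequence. Of the 48 members, 13 share exon bases with another gene of the table, 5 of them over 5% (MCM7, PRIM1, RFC5, FEN1 and TYMS), and 9 have at least 1 pseudogene by name. ORC4 shares 4.8% with ACVR2A and 1.8% with MBD5, both on the other strand, and MBD5 fell. Leaving out all members of either kind, 29 members remained, 28 of them higher and 1 lower, and their median log2 fold change was 1.29. Over all tested genes 34.4% were called higher and 34.8% lower, with a median of -0.01.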

How the data were processed

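Poly(A) RNA of 6 libraries was sequenced as 150 bp paired reads, per the labels' protocols. Reads were handled with fastp, HISAT2 and HTSeq on GRCh38, per the submitters' processing notes. No source used here gives the tool versions, annotation, counting mode or strand setting. The deposited counts are the authors' raw counts per gene symbol. The deposited FPKM values are the authors' and equal those counts scaled by gene length and library total: the gene length they imply differed between libraries by at most 4.6e-05% (mean count at least 10).

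The main test was edgeR 4.0.16 under R 4.3.3 (quasi-likelihood F test, robust, two-sided, TMM, default low-count filter), which left 15422 genes, with Benjamini-Hochberg adjustment over all of them. The SE comes from the F statistic. Library totals ranged from 34505712 to 36610862 and the biological coefficient of variation was 7.41%. Fits were tested on simulated data. Alternatives were DESeq2 1.42.0 (size factors or Wald test), upper-quartile factors, library totals, removal of 13 mitochondrially encoded genes, testing without a filter, a filter of 1 CPM in 3 libraries with a mean of 50 counts, limma 3.58.1 (voom, or trend on log2(FPKM + 0.1) and log2(FPKM + 1)), offsets for gene length, a block for replicate number, and omission of each library in turn.

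Members and lists were chosen with earlier results of these data known. All members are covered. Of the other genes called with a mean of at least 100 counts, up to 6 with the largest change per direction are named. MCM8 and MCM9 are named too, chosen after their values were seen, as are MTBP and ATAD5, whose calls changed under alternatives. Promoters and gene positions are RefSeq's on GRCh38.p14, and exon overlaps and pseudogenes are from GENCODE 29. The promoter table gave no window for MCM4, MCM5, GINS4, POLD3, RPA2 and RPA3.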

Additional observations from a re-analysis of the deposited data

How the results depend on the processing

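The calls of 43 of the 48 members were the same under all 18 alternatives, and no member changed direction. The exceptions were ORC2, ORC3, POLE, RPA2 and DUT, each called with a log2 fold change under 0.3 in size. The number of members called higher ran from 42 with library totals as the only scaling to 46. The number called lower was 2 in every alternative except without LNCaP-ENZR 2, where it was 1, and with 1 library left out it ran from 1 to 2. Of the other replication genes, 33 to 40 were called higher and 5 to 6 lower over the alternatives, against 38 and 5. The median log2 fold change over members was 1.04 with library totals alone, 1.04 with limma-trend on log2(FPKM + 0.1), 0.95 on log2(FPKM + 1) and 1.17 with length offsets, and leaving out 1 library each gave 1.13 to 1.18, against 1.13. The 4 scaling and length shifts, and the largest shift on leaving out 1 library, exceed the spread of the median between replicates (SD 0.0153 on the log2 scale). Their cause was not tested. Library totals alone, which leave out the TMM factors, moved the median of all tested genes to -0.10, from -0.01.

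Same-numbered libraries showed residual correlations of 0.0132 to 0.0651, and 3 of 6 libraries correlated best with their own number, so the numbers were not taken as pairs. With a replicate block 46 members were called higher and 2 lower, the median log2 fold change over members was 1.13, and 38 other genes were called higher and 5 lower. Only 3 libraries a group limit the precision, and the member with the fewest counts had 106 in its lowest library.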
